A study of Mus musculus with 24 samples.

Results

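Genes of the major histocompatibility complex (MHC) and of antigen presentation were followed in the plantaris, a hindlimb muscle that plantarflexes the ankle, of Mstn-/- and wildtype mice with and without mechanical overload. The set was chosen by symbol and holds 10 genes: H2-Aa, H2-Ab1, H2-Eb1, H2-DMa, Cd74, Ciita, B2m, H2-K1, H2-D1 and Tap1. Of these, 8 had a probe set annotated to that symbol alone, out of 19937 genes on the array, and all 8 were among the 14499 genes that passed the filter on low signal. H2-K1 and H2-D1 had no probe set of their own. They share 2 probe sets that carry both symbols and a LOC symbol, and the signal of those cannot be assigned to either gene.

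The 4 groups were Mstn-/- with overload, Mstn-/- untreated, wildtype with overload and wildtype untreated, each with 6 mice labelled as biological replicates, aged 3 months when the treatment began. Mstn encodes myostatin, a negative regulator of muscle mass from the TGF-beta family, and the labels give no more of the allele than its genotype. Overload was produced by surgery that took out the soleus and most of the gastrocnemius of both legs, so that the plantaris carried their work. The untreated mice had no surgery named in the labels, so overload and operation cannot be told apart. The labels used here give neither the time between surgery and sampling nor the mouse strain, and hence no MHC haplotype. RNA of 1 muscle per mouse (1000 ng) was hybridised to whole-transcript arrays. The muscle was whole tissue, in which more cells of a type and more RNA per cell cannot be told apart.

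Median intensity per array lay between 139 and 147. The skeletal muscle fibre list held creatine kinase Ckm, actin Acta1, fast myosins and others (8 of 8 measured). Its summed intensity was 87422.5 to 92989 in overloaded and 91134 to 98643 in untreated Mstn-/- muscle. In wildtype muscle the sum was 62916 to 76606 with overload and 90147 to 91977 untreated. On all 24 arrays it was above the sum of every immune list given below. Mstn itself averaged a log2 intensity of 8.25 ± 0.30 in overloaded Mstn-/-, 8.93 ± 0.31 in untreated Mstn-/-, 8.40 ± 0.19 in overloaded wildtype and 10.25 ± 0.11 in untreated wildtype muscle (SD, n = 6 each). It was 2.51-fold lower in Mstn-/- than in wildtype without overload (limma adjusted p = 2.7e-08), and the groups did not overlap. Under overload the genotypes differed in Mstn by -0.15 ± 0.13 on the log2 scale (SE, limma adjusted p = 0.39), so there the probe set does not tell them apart. Whether the probes lie in the deleted part was not given in the sources used here.

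MHC class II molecules present peptides from the endocytic pathway to CD4 T cells and are carried mainly by dendritic cells, macrophages and B cells. MHC class I molecules, found on nearly all nucleated cells and at low levels on mature muscle fibres, present peptides made by the proteasome to CD8 T cells. Class II genes are switched on by CIITA together with factors bound to the X and Y boxes of their promoters, and interferon-gamma raises both classes.

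Promoters of 3 genes are shown because they hold the elements named above: those of the class II chains H2-Aa and H2-Eb1 and of the class I light chain B2m. The RefSeq promoter table (GRCm38.p6) held entries for 7 of the 10 genes; it did not list H2-Ab1, Cd74 and Ciita. Each stretch runs from 200 to 1 base before the annotated start, 5′ to 3′ on the gene's strand. H2-Aa lies on the minus strand at chr17:34287824-34288023, H2-Eb1 on the plus strand at chr17:34305667-34305866 and B2m on the plus strand at chr2:122147487-122147686. Capitals mark the Y box in H2-Aa, the X box core followed by the Y box in H2-Eb1, and the interferon-stimulated response element in B2m.
H2-Aa: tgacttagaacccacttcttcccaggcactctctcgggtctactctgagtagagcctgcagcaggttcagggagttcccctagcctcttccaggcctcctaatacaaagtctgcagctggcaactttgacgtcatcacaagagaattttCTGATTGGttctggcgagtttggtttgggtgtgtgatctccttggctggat
H2-Eb1: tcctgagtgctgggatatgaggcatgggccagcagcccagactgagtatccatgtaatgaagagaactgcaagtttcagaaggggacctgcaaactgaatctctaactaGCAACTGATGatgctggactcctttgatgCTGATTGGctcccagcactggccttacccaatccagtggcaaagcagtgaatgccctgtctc
B2m: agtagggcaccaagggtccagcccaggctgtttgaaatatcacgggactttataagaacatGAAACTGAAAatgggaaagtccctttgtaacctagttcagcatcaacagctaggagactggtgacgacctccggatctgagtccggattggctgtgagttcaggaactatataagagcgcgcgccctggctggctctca

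Both strands of every promoter window (250 bases before to 50 after the start) were searched for 4 motifs. The Y box, CTGATTGG, occurred in 4.10% of 32851 promoters and in those of H2-Aa, H2-Eb1, Tap1, H2-D1 and H2-K1. In H2-Aa it spans -51 to -44 and in H2-Eb1 -62 to -55 from the start, on the gene's strand. The other matches lie on the opposite strand, in Tap1 from -222 to -215 and in H2-D1 from -53 to -46. In H2-K1 the match spans 8 to 15 from 1 annotated start and -6 to 1 from the other. The X box core, whose matched letters stand in capitals in the H2-Eb1 promoter, occurred in 3.54% of promoters and among these genes in H2-Eb1, from -91 to -82. The interferon-stimulated response element, in capitals in the B2m promoter, occurred in 3.44% of promoters and here in B2m, from -139 to -130. The STAT site, TTCNNNGAA, occurred in 8.30% of promoters and in none of these 7 genes. The H2-K1 match is 1 stretch of bases counted from 2 annotated starts, and no matches of different motifs overlapped. These are matches of letters and do not show that a factor binds. Lack of a match, as for the X box letters in H2-Aa, does not show that an element is absent.

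**Figure D1:**
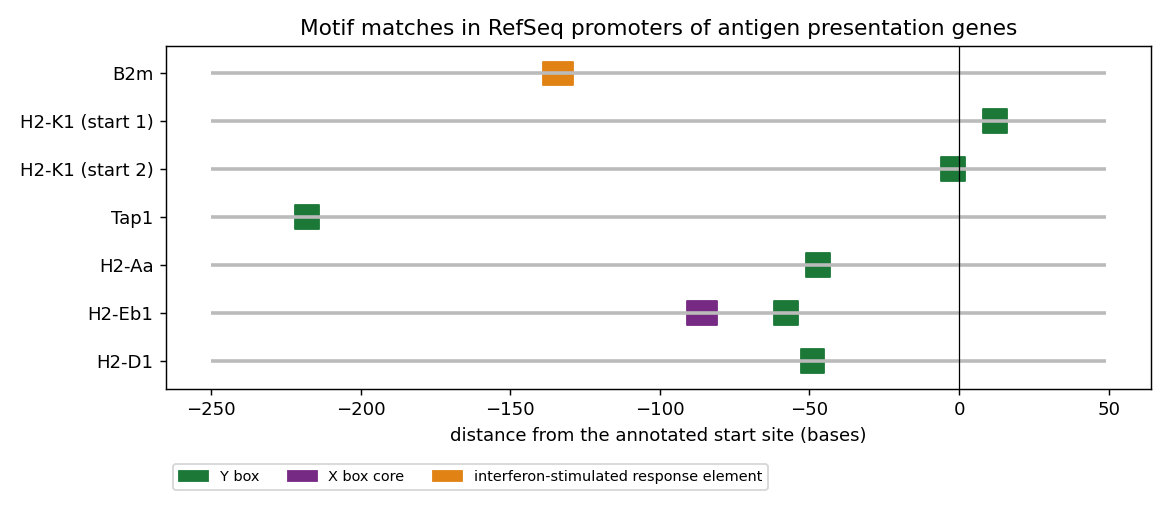
Positions of motif matches (coloured blocks) in RefSeq promoter windows, as distance in bases from the annotated start (vertical line); grey lines span each window, and H2-K1 has 2 annotated starts. Y box matches sit just upstream of the start in H2-Aa, H2-Eb1 and, on the opposite strand, H2-D1. The interferon-stimulated response element of B2m lies from -139 to -130.

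Overload was accompanied by higher antigen presentation transcripts in both genotypes. In Mstn-/- muscle 7 of the 8 measured genes rose, where 27.1% of all tested genes rose, and their groups did not overlap (19.8% of all tested genes were non-overlapping and higher). The one that did not pass was Ciita. In wildtype muscle all 8 rose, against 30.3% of all tested genes, and none of the 8 overlapped (21.8% of all). Changes of at least 2-fold were found for 4 of the 8 in Mstn-/- (3.87% of all tested genes) and 5 of the 8 in wildtype (5.95%). The median log2 difference of the 8 genes was 1.26 in Mstn-/- and 1.55 in wildtype, against -0.06 over all tested genes in each genotype. The overload comparisons each rest on their own untreated arrays.

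Genotype alone had smaller effects on the 8 genes. Without overload, 4 were higher in Mstn-/- than in wildtype (11.1% of all tested genes were) and 1 was lower (10.2%), with a median of 0.24 against -0.01 over all genes. Groups did not overlap for 1 of the 4 higher genes, H2-Ab1 (6.53% of all tested genes). Under overload none was higher (17.5% of all) and 1, Ciita, was lower (19.0%), and its groups did not overlap (8.46% of all). The median of the 8 there was -0.02, against -0.03 over all genes. The overload response itself was smaller in Mstn-/- for 4 of the 8 genes, where 8.44% of all tested genes passed in that direction, and larger for none (8.92% of all). The median difference in response was -0.41, against -0.02 over all genes.

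H2-Aa encodes the alpha chain of the class II molecule I-A. Its log2 intensity had a lowest, median and highest value of 11.57, 11.85 and 12.27 in overloaded Mstn-/- and of 9.67, 10.10 and 10.39 in untreated Mstn-/- muscle. In wildtype the same values were 11.76, 11.88 and 12.12 with overload and 9.10, 9.47 and 9.80 untreated. All overloaded arrays lay above all untreated ones, and the overloaded groups of both genotypes overlapped. H2-Aa was 3.58-fold higher with overload in Mstn-/- (1.84 ± 0.13 on the log2 scale, SE, limma adjusted p = 1.0e-11) and 5.41-fold higher in wildtype (2.44 ± 0.13, limma adjusted p = 2.5e-14). Untreated Mstn-/- muscle stood 1.50-fold above untreated wildtype (0.59 ± 0.13, limma adjusted p = 0.0019), with overlapping groups. Under overload the genotypes differed by -0.01 (95% interval -0.28 to 0.26). The response was smaller in Mstn-/- by -0.60 ± 0.19 (limma adjusted p = 0.027). That call was lost, with an adjusted p of up to 0.053, without any of 4 arrays: overloaded Mstn-/- replicates 5 and 6, untreated Mstn-/- replicate 1 and untreated wildtype replicate 4.

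H2-Ab1, the beta chain that pairs with H2-Aa, ranged over 10.76, 11.22 and 11.43 (lowest, median, highest) in overloaded and 8.89, 9.38 and 9.69 in untreated Mstn-/- muscle. Wildtype values were 10.82, 10.98 and 11.27 with overload and 8.44, 8.64 and 8.86 untreated. Every untreated Mstn-/- array lay above every untreated wildtype array, while the overloaded groups overlapped. H2-Ab1 was 3.53-fold higher with overload in Mstn-/- (1.82 ± 0.12, limma adjusted p = 3.8e-12) and 5.12-fold higher in wildtype (2.36 ± 0.12, limma adjusted p = 1.4e-14). The untreated difference between genotypes was 1.60-fold (0.68 ± 0.12, limma adjusted p = 0.00024). With overload it was 0.14 (95% interval -0.11 to 0.39), and the response differed by -0.54 ± 0.17 (limma adjusted p = 0.033). The last call was lost, with an adjusted p of up to 0.066, without any of 9 arrays: overloaded Mstn-/- replicates 5 and 6, untreated Mstn-/- replicates 1, 4 and 6, overloaded wildtype replicate 3 and untreated wildtype replicates 3, 4 and 5.

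H2-Eb1, the beta chain of the class II molecule I-E, gave 10.60, 10.89 and 11.24 in overloaded and 9.04, 9.34 and 9.53 in untreated Mstn-/- muscle. In wildtype it gave 10.88, 11.02 and 11.31 with overload and 8.81, 8.93 and 9.18 untreated. Overloaded and untreated arrays were fully apart in each genotype. The rise was 3.01-fold in Mstn-/- (1.59 ± 0.10, limma adjusted p = 2.3e-12) and 4.28-fold in wildtype (2.10 ± 0.10, limma adjusted p = 5.8e-15). Untreated Mstn-/- muscle was 1.29-fold above wildtype (limma adjusted p = 0.013) with some overlap, and the response was smaller in Mstn-/- by -0.50 ± 0.15 (limma adjusted p = 0.018). The alpha chain of I-E, listed as H2-Ea, stayed below the filter in every group, with mean log2 intensities of 5.78 to 5.91. Some mouse haplotypes carry a defective allele of that gene, and the haplotype of these mice is not known here.

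Cd74 encodes the invariant chain, which holds the peptide groove of new class II molecules until they reach the endosome. It ranged over 11.04, 11.39 and 11.77 in overloaded and 9.43, 9.72 and 10.04 in untreated Mstn-/- muscle, and over 11.28, 11.47 and 11.72 in overloaded and 9.01, 9.32 and 9.51 in untreated wildtype muscle. Its pattern followed the class II chains, with no overlap between overloaded and untreated arrays. Cd74 rose 3.21-fold in Mstn-/- (1.68 ± 0.12, limma adjusted p = 1.1e-11) and 4.48-fold in wildtype (2.16 ± 0.12, limma adjusted p = 4.3e-14). It was 1.34-fold higher in untreated Mstn-/- than in untreated wildtype muscle (limma adjusted p = 0.014). The difference in response, -0.48 ± 0.17, missed the threshold (limma adjusted p = 0.052), and it passed without any of 7 arrays (adjusted p down to 0.024).

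H2-DMa encodes the alpha chain of H2-DM, which exchanges the invariant chain fragment for peptide. Its values were 8.98, 9.32 and 9.81 in overloaded and 8.25, 8.41 and 8.58 in untreated Mstn-/- muscle, and 9.20, 9.31 and 9.40 in overloaded and 7.94, 8.32 and 8.61 in untreated wildtype muscle. The rise was smaller than for the class II chains and close in the 2 genotypes, 1.90-fold in Mstn-/- (limma adjusted p = 5.8e-08) and 2.01-fold in wildtype (limma adjusted p = 8.1e-09). Neither genotype comparison passed: the differences were 0.11 without overload (95% interval -0.11 to 0.34) and 0.04 under overload (-0.18 to 0.26). The response differed by -0.08 (-0.39 to 0.24). The partner chains H2-DMb1 and H2-DMb2 were not analysed here.

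Ciita encodes the master transactivator of class II genes, and it behaved differently in the 2 genotypes. Its log2 intensity was low, with 7.07, 7.11 and 7.29 in overloaded and 6.98, 7.05 and 7.13 in untreated Mstn-/- muscle, against a filter threshold of 6.63. In wildtype it was 7.30, 7.37 and 7.45 with overload and 6.69, 6.98 and 7.11 untreated. The overloaded wildtype arrays stood above every other array, including all overloaded Mstn-/- arrays. Ciita was 1.35-fold higher with overload in wildtype (0.43 ± 0.06, limma adjusted p = 2.9e-07). In Mstn-/- the difference was 0.09 (95% interval -0.03 to 0.21, limma adjusted p = 0.17). Under overload Ciita was 1.18-fold lower in Mstn-/- than in wildtype (-0.23 ± 0.06, limma adjusted p = 0.0024), and the response differed by -0.34 ± 0.08 (limma adjusted p = 0.0049). Class II chains in overloaded muscle did not differ past the threshold between the genotypes, whereas Ciita did.

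**Figure D2:**
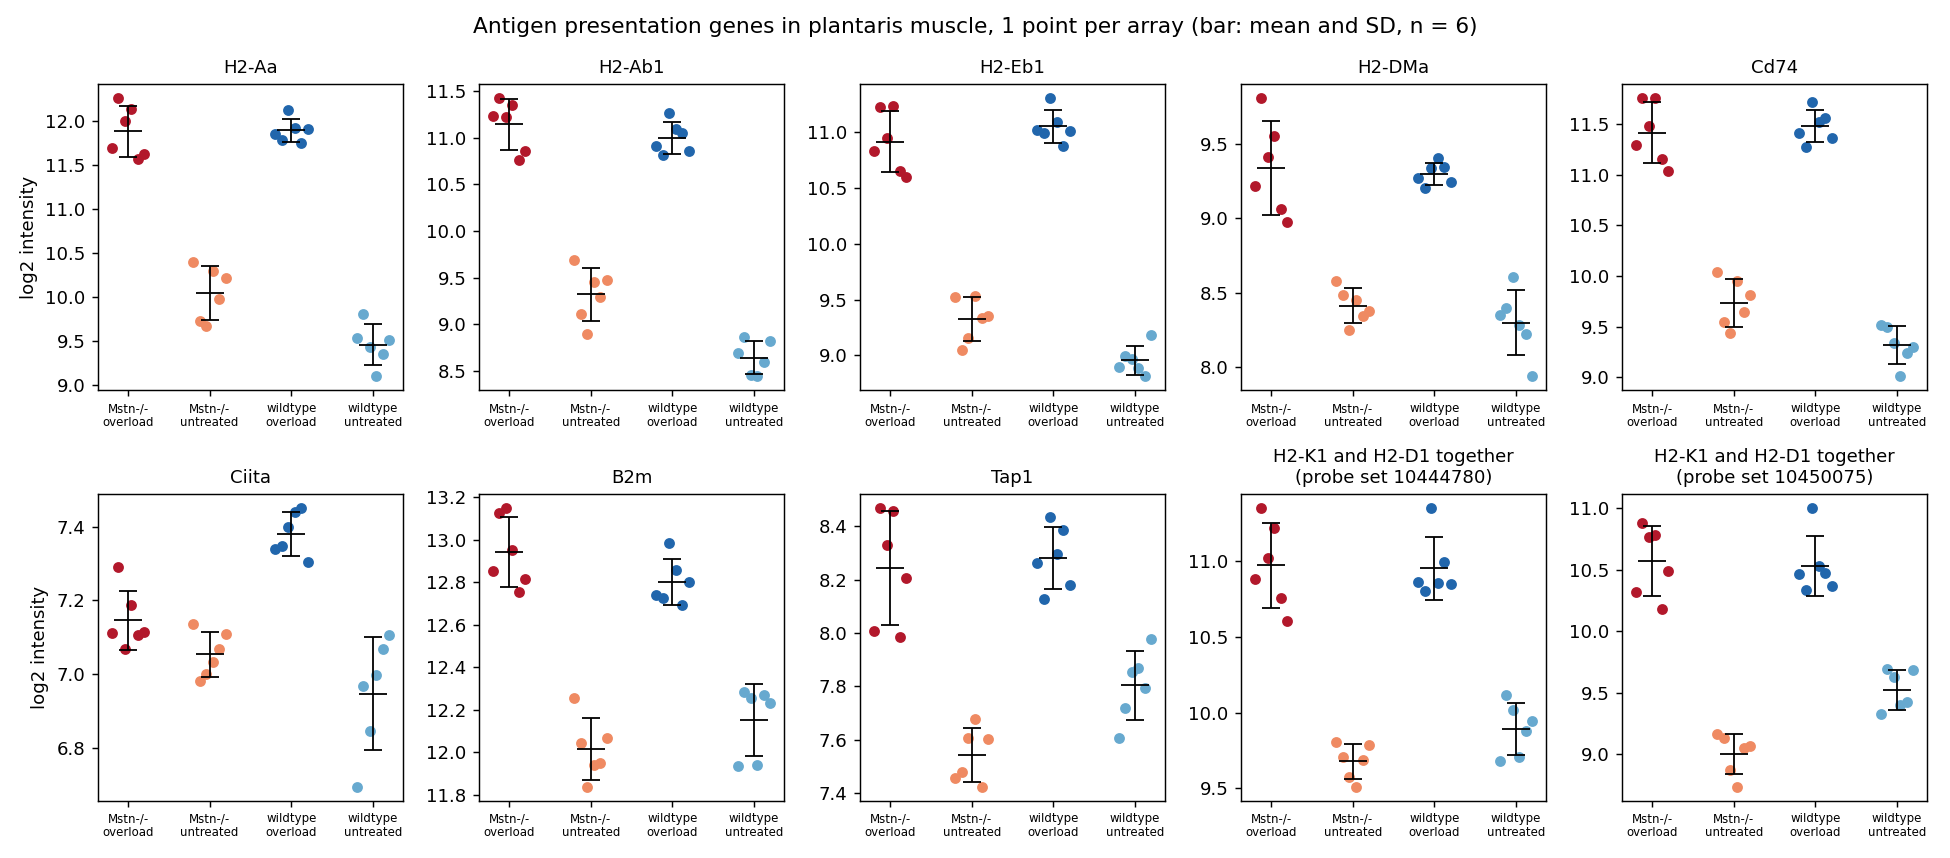
Log2 intensity on each of the 24 arrays (points) with group mean and SD (bars, n = 6), for the 8 genes and for the 2 probe sets shared by H2-K1 and H2-D1; each panel has its own axis. Overloaded arrays lie above untreated ones of the same genotype in every panel except Ciita in Mstn-/-, and the 6 overloaded wildtype arrays of Ciita, 7.30 to 7.45, lie above all others.

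B2m encodes beta-2-microglobulin, the light chain common to class I molecules. It gave 12.76, 12.90 and 13.15 in overloaded and 11.84, 12.00 and 12.26 in untreated Mstn-/- muscle, and 12.69, 12.77 and 12.98 in overloaded and 11.93, 12.24 and 12.28 in untreated wildtype muscle. Overloaded arrays were above untreated ones in both genotypes, and the genotypes overlapped in both conditions. The rise was 1.90-fold in Mstn-/- (0.93 ± 0.08, limma adjusted p = 4.3e-10) and 1.57-fold in wildtype (0.65 ± 0.08, limma adjusted p = 1.0e-07). The difference in response was 0.28 (95% interval 0.04 to 0.52) and missed the threshold after adjustment over all genes (limma adjusted p = 0.10). Without overload the genotypes differed by -0.14 (-0.30 to 0.03), and under overload by 0.14 (-0.03 to 0.31).

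Tap1 encodes a subunit of the transporter that brings peptides into the endoplasmic reticulum for class I loading. Its values were 7.98, 8.27 and 8.47 in overloaded and 7.42, 7.54 and 7.68 in untreated Mstn-/- muscle, and 8.13, 8.28 and 8.43 in overloaded and 7.61, 7.82 and 7.98 in untreated wildtype muscle. Tap1 rose 1.63-fold in Mstn-/- (0.70 ± 0.08, limma adjusted p = 4.6e-08) and 1.39-fold in wildtype (0.48 ± 0.08, limma adjusted p = 1.1e-05). It was the gene that was lower in untreated Mstn-/- than in untreated wildtype muscle, 1.20-fold (-0.26 ± 0.08, limma adjusted p = 0.022), with overlap. The call was lost without untreated Mstn-/- replicate 5 (adjusted p = 0.052) or untreated wildtype replicate 6 (adjusted p = 0.058). The difference in response was 0.22 (95% interval -0.01 to 0.46).

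H2-K1 and H2-D1 encode classical class I heavy chains that are close in sequence. The 2 probe sets that carry both symbols were fitted as rows of their own, a choice made after the values were seen. Probe set 10444780 gave 10.61, 10.95 and 11.35 in overloaded and 9.51, 9.70 and 9.81 in untreated Mstn-/- muscle, and 10.80, 10.86 and 11.35 in overloaded and 9.68, 9.91 and 10.12 in untreated wildtype muscle. It was 2.45-fold higher with overload in Mstn-/- (limma adjusted p = 1.7e-10) and 2.09-fold higher in wildtype (limma adjusted p = 2.6e-09), with no overlap. Neither its untreated genotype difference (-0.21, limma adjusted p = 0.18) nor its difference in response (0.23, limma adjusted p = 0.34) passed.

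The other shared probe set, 10450075, gave 10.18, 10.63 and 10.88 in overloaded and 8.74, 9.06 and 9.17 in untreated Mstn-/- muscle. In wildtype it gave 10.33, 10.47 and 11.00 with overload and 9.33, 9.53 and 9.70 untreated. All untreated Mstn-/- arrays lay below all untreated wildtype arrays (as for 5.47% of all tested genes), the opposite order to H2-Ab1. The overload rise was 2.96-fold in Mstn-/- (1.57 ± 0.12, limma adjusted p = 2.1e-11) and 2.00-fold in wildtype (1.00 ± 0.12, limma adjusted p = 2.6e-08). Untreated Mstn-/- muscle was 1.44-fold lower (-0.52 ± 0.12, limma adjusted p = 0.0019), and the response was larger in Mstn-/- by 0.56 ± 0.16 (limma adjusted p = 0.018). The 2 probe sets thus differ in the genotype calls, and neither can be given to 1 of the genes.

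**Figure D3:**
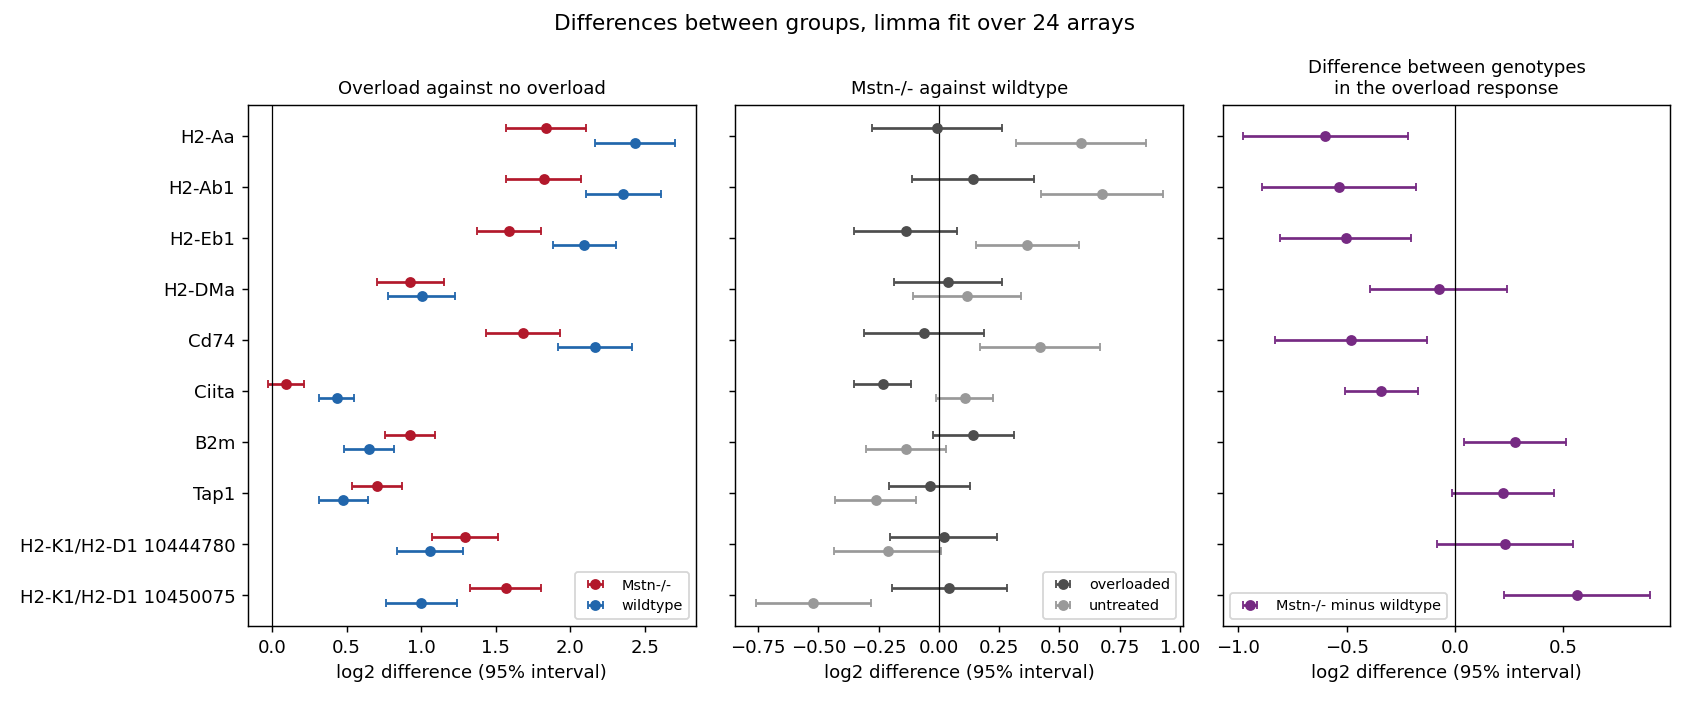
Log2 differences (points) with 95% intervals (bars) from the limma fit, for overload against no overload in each genotype, Mstn-/- against wildtype in each condition, and the difference in response; the zero line marks no difference. The difference in response is below 0 for H2-Aa (-0.60), H2-Ab1 (-0.54), H2-Eb1 (-0.50) and Ciita (-0.34) and above 0 for B2m (0.28), which missed the threshold, and the shared probe set 10450075 (0.56).

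Whether the genes changed by unequal amounts was asked within arrays, by taking each gene's log2 value minus that of H2-Aa on the same array and comparing overloaded with untreated arrays (14 two-sided exact permutation tests, adjusted by Benjamini-Hochberg, smallest possible p = 0.0022, a comparison added after the values were seen). The change of H2-Ab1 minus that of H2-Aa was -0.02 ± 0.06 in Mstn-/- (SE, exact p = 0.81) and -0.08 ± 0.07 in wildtype (exact p = 0.30). H2-Eb1, also a class II chain, rose less than H2-Aa by -0.25 ± 0.07 in Mstn-/- (exact permutation test, adjusted p = 0.0076) and -0.34 ± 0.09 in wildtype (adjusted p = 0.0067). Cd74 changed less than H2-Aa by -0.15 ± 0.05 in Mstn-/- and -0.27 ± 0.07 in wildtype (exact permutation test, adjusted p = 0.0076 in each). The gap for H2-DMa was -0.91 ± 0.11 in Mstn-/- and -1.43 ± 0.14 in wildtype (exact permutation test, adjusted p = 0.0038 in each). For B2m it was -0.91 ± 0.12 in Mstn-/- and -1.79 ± 0.09 in wildtype, at the same adjusted p. Tap1 gave -1.14 ± 0.14 in Mstn-/- and -1.96 ± 0.14 in wildtype, and Ciita -1.75 ± 0.14 in Mstn-/- and -2.0 ± 0.14 in wildtype, again at that adjusted p. H2-Aa had the largest overload change of the 8 genes in each genotype (1.84 in Mstn-/- and 2.44 in wildtype). Negative gaps were therefore built in by the choice of reference, and the p-values do not allow for it. No test was made against H2-Ab1 or H2-Eb1.

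Among 19 accessory genes of class II presentation, 15 were tested. With overload 8 rose and 4 fell in Mstn-/-, and 7 rose and 3 fell in wildtype. Of all tested genes 27.1% rose and 33.5% fell in Mstn-/-, and 30.3% rose and 35.6% fell in wildtype. The same shares are the background for the overload counts of every list below. The proteases and reductase of the endocytic pathway made up the largest rises. Ctss, the cathepsin that trims the invariant chain, differed by 1.95 ± 0.18 in Mstn-/- (limma adjusted p = 7.3e-10) and 2.66 ± 0.18 in wildtype (limma adjusted p = 1.0e-12), and its response was smaller in Mstn-/- by -0.71 ± 0.25 (limma adjusted p = 0.049). Lgmn, the asparaginyl endopeptidase of lysosomes, rose by 1.36 in Mstn-/- and 1.68 in wildtype, and under overload was lower in Mstn-/- by -0.53 ± 0.08 (limma adjusted p = 1.9e-05). Ifi30, a lysosomal thiol reductase, rose by 1.47 in Mstn-/- and 1.45 in wildtype. The genes that fell were subunits of factors that bind the X and Y boxes: Nfyb, Nfyc and Rfxap in both genotypes and Rfxank in Mstn-/-. Nfyb, a subunit of the Y box factor NF-Y, differed by -0.29 in Mstn-/- (limma adjusted p = 0.0011) and -0.70 in wildtype (limma adjusted p = 3.7e-09), and Nfyc by -0.19 in Mstn-/- and -0.41 in wildtype. Nfya, the remaining subunit of NF-Y, went the other way, with 0.34 in Mstn-/- and 0.55 in wildtype (limma adjusted p = 5.7e-05 and 3.3e-08). Rfxap, a subunit of the X box factor RFX, fell by 0.30 in Mstn-/- (limma adjusted p = 2.6e-05) and 0.31 in wildtype. Rfx5, the DNA-binding subunit of RFX, instead rose by 0.30 in Mstn-/- (limma adjusted p = 0.0020), with 0.14 in wildtype (limma adjusted p = 0.10). Creb1, which also binds the X box region, rose by 0.17 in Mstn-/- (limma adjusted p = 0.019), with 0.06 in wildtype. The median of the list was 0.17 in Mstn-/- and 0.14 in wildtype, against -0.06 over all genes.

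All 13 genes of class I peptide supply and loading were tested, and with overload 10 rose and none fell in each genotype (median 0.30 in Mstn-/- and 0.22 in wildtype). Pdia3, a disulfide isomerase of the peptide loading complex that also serves glycoprotein folding in general, rose by 1.32 ± 0.10 in Mstn-/- and 1.50 ± 0.10 in wildtype. Calr, the chaperone calreticulin, rose by 0.47 ± 0.05 in Mstn-/- and 0.71 ± 0.05 in wildtype, and its response was smaller in Mstn-/- by -0.24 (limma adjusted p = 0.023). The proteasome activator subunits went the other way. Psme2 rose by 0.54 in Mstn-/- and 0.22 in wildtype, a larger response in Mstn-/- by 0.31 ± 0.10 (limma adjusted p = 0.039), and Psme1 likewise had a larger response by 0.30 (limma adjusted p = 0.0099). Psmb10, an immunoproteasome subunit, was lower in Mstn-/- than in wildtype both without overload (-0.31, limma adjusted p = 0.0018) and with it (-0.38, limma adjusted p = 0.00012). The immunoproteasome subunits Psmb8 and Psmb9 did not pass in either comparison. Psmb8 differed by -0.16 without overload (limma adjusted p = 0.14) and -0.14 with it (limma adjusted p = 0.18). Psmb9 differed by 0.04 without overload (limma adjusted p = 0.68) and -0.03 with it (limma adjusted p = 0.74). Nlrc5, the transactivator of class I genes, did not pass in any comparison, with differences of -0.03 in Mstn-/- and -0.11 in wildtype for overload.

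Of 18 other class I and class I-like heavy chains, 10 were measured and 8 tested. With overload 6 rose (27.1% of all tested genes) and 1 fell (33.5%) in Mstn-/-, and 3 rose (30.3%) and 1 fell (35.6%) in wildtype. H2-Q4, a Qa region heavy chain, rose by 1.08 ± 0.12 in Mstn-/- (limma adjusted p = 4.1e-08) and 0.52 ± 0.12 in wildtype (limma adjusted p = 0.00069). It was lower in untreated Mstn-/- muscle (-0.38, limma adjusted p = 0.031) and its response was larger in Mstn-/- by 0.56 ± 0.18 (limma adjusted p = 0.027), the same directions as probe set 10450075. Class I heavy chains are close in sequence, so signal of one on the probes of another cannot be separated. Mr1, which presents vitamin metabolites, fell by 0.53 in Mstn-/- and 0.56 in wildtype.

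Among 8 ligands of T cell co-stimulation and checkpoints 5 were tested, and 3 rose with overload in each genotype. Cd80, a ligand of CD28, rose by 0.73 in Mstn-/- and 1.03 in wildtype, and Cd86, its other ligand, by 0.82 in Mstn-/- and 1.06 in wildtype. Of 11 measured genes of interferon-gamma signalling, 5 rose and 3 fell with overload in each genotype. Of all tested genes 27.1% rose and 33.5% fell in Mstn-/-, and 30.3% rose and 35.6% fell in wildtype. Cxcl9, a chemokine induced by interferon-gamma, was higher with overload by 2.41 ± 0.20 in Mstn-/- and 1.61 ± 0.20 in wildtype. Its difference in response, 0.79 ± 0.29, missed the threshold (limma adjusted p = 0.056). Irf8, a factor of the myeloid lineage, rose by 0.13 in Mstn-/- (limma adjusted p = 0.045) and 0.42 in wildtype, a smaller response in Mstn-/- by -0.29 (limma adjusted p = 0.015). Jak2, a kinase of the receptor, fell by 0.68 in each genotype. Ifng itself did not pass in any comparison, with mean log2 intensities of 6.93 to 7.11 over the 4 groups.

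**Figure D4:**
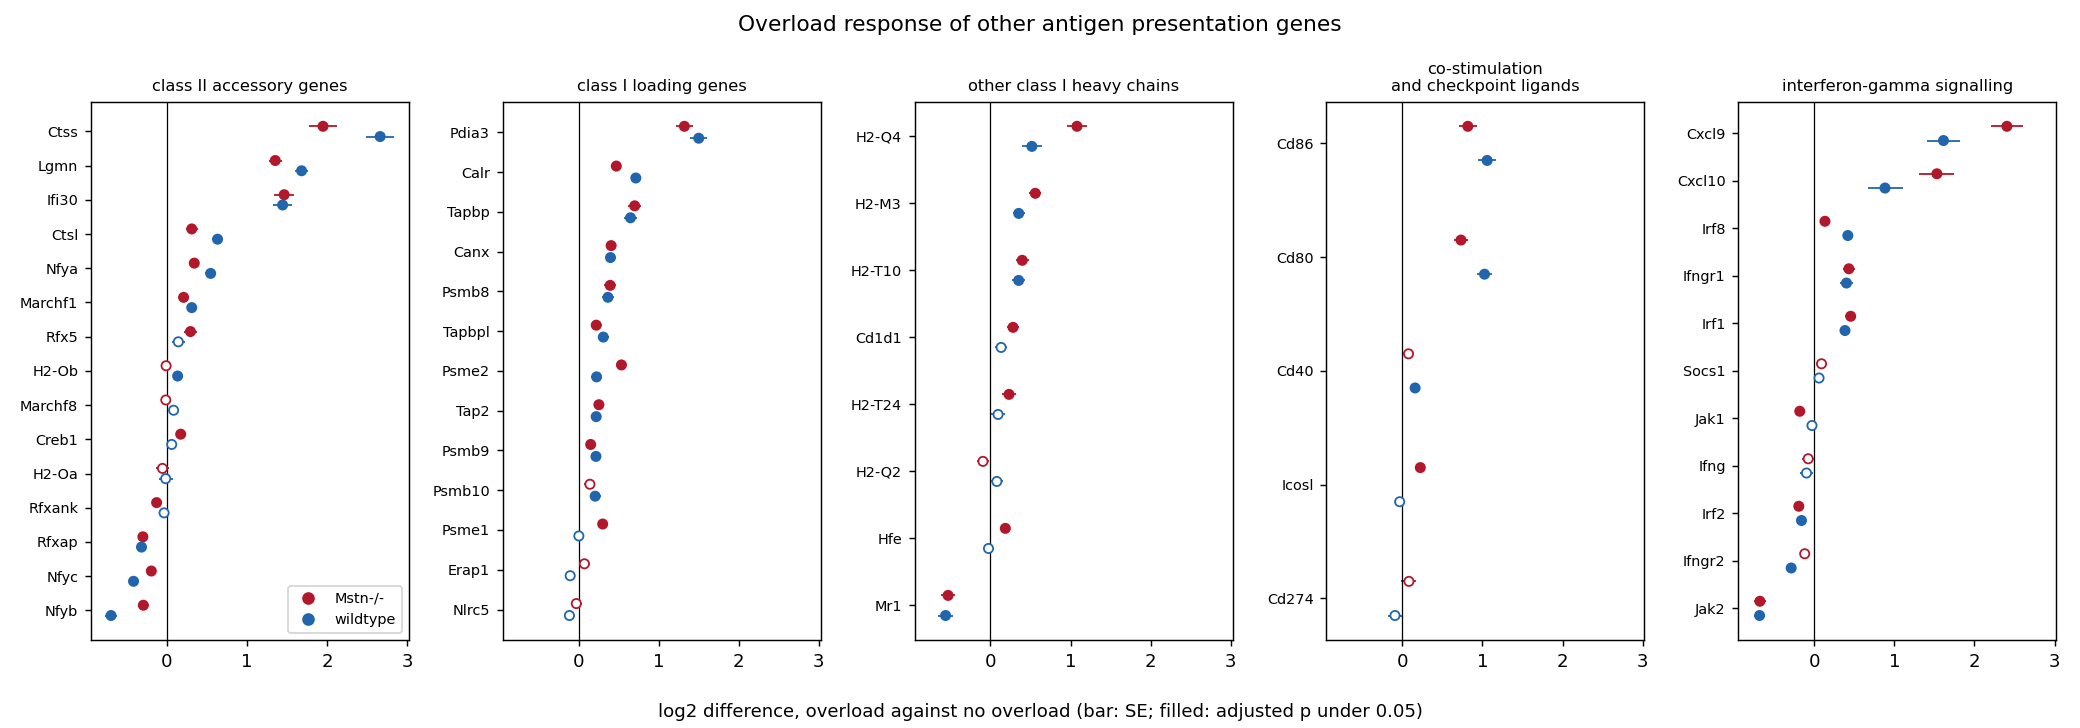
Log2 difference between overloaded and untreated muscle (points) with SE (bars) for the tested genes of 5 lists, Mstn-/- in red above wildtype in blue; filled points passed the limma adjusted p threshold of 0.05. Ctss (1.95 in Mstn-/-, 2.66 in wildtype), Pdia3 and Cxcl9 are among the genes that rose, and Nfyb, Mr1 and Jak2 among those that fell.

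Macrophage and leukocyte markers rose with overload, as the class II genes did. All 12 macrophage markers rose with overload in each genotype, with a median log2 difference of 1.51 in Mstn-/- and 2.17 in wildtype. Their summed intensity was 10609 to 19623 in overloaded and 4537 to 5724 in untreated Mstn-/- muscle, and 15383 to 22261 in overloaded and 3130 to 4307 in untreated wildtype muscle. Like the class II chains, 5 of the 12 were higher in untreated Mstn-/- than in untreated wildtype muscle and none was lower. Of all tested genes 11.1% were higher and 10.2% lower there. Among the 5 was Lyz2, the lysozyme of myeloid cells (0.85 ± 0.11, limma adjusted p = 2.9e-06). The response was smaller in Mstn-/- for 7 of the 12 (8.44% of all tested genes), with a median of -0.64. Under overload 3 of the 12 were lower in Mstn-/- than in wildtype and none was higher, with a median of -0.26. Of all tested genes 19.0% were lower there and 17.5% higher. The class II chains and Cd74 did not pass in that comparison (H2-Aa -0.01, H2-Ab1 0.14, H2-Eb1 -0.14, Cd74 -0.06). The summed intensity of the class II chains H2-Aa, H2-Ab1 and H2-Eb1 with Cd74 was 8671 to 13565 in overloaded and 2549 to 3956 in untreated Mstn-/- muscle, and 9870 to 12845 in overloaded and 1881 to 2591 in untreated wildtype muscle. Overloaded wildtype replicate 3 had the highest value of its group in both sums. Leukocyte markers common to these cells (4 of 4, among them Ptprc) rose with overload in each genotype. The part of macrophage number in the class II differences was not tested.

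Sums of the other immune lists spanned a narrower range. They include the genes below the filter, so part of each sum is low signal that could not show a change. Of 10 dendritic cell markers, Xcr1, Clec9a and Itgae were below the filter. Of the 7 tested, 3 rose and 1 fell in Mstn-/-, and 5 rose and 1 fell in wildtype. Itgax rose by 0.97 ± 0.11 in Mstn-/- (limma adjusted p = 5.1e-08) and 1.14 ± 0.11 in wildtype (limma adjusted p = 1.6e-09). Clec10a rose by 0.85 ± 0.11 in Mstn-/- and 0.88 ± 0.11 in wildtype. Zbtb46 fell in both genotypes (-0.13 in Mstn-/- and -0.16 in wildtype). Sums of the list were 1387 to 1714 in overloaded and 1230 to 1463 in untreated Mstn-/- muscle. In wildtype muscle they were 1456 to 1722 with overload and 1148 to 1233 untreated. Between untreated genotypes 1 of the 7 was higher in Mstn-/- (11.1% of all tested genes), none was lower and 6 did not pass. The higher one was Cd209a, a lectin of monocyte-derived and dendritic cells, by 0.79 ± 0.13 (limma adjusted p = 4.8e-05). B cell markers gave sums of 593 to 640 in overloaded and 580 to 619 in untreated Mstn-/- muscle, and 612 to 715 in overloaded and 572 to 683 in untreated wildtype muscle, with Ms4a1, Cd79a and Fcrla below the filter. Of the 4 tested, 1 rose with overload in Mstn-/- (27.1% of all tested genes) and 2 in wildtype (30.3%). T cell markers gave sums of 889 to 1087 in overloaded and 835 to 878 in untreated Mstn-/- muscle, and 845 to 1107 in overloaded and 779 to 941 in untreated wildtype muscle, with Cd3d, Cd3g, Cd8b1 and Cd2 below the filter. Of the 5 tested, 2 rose with overload in each genotype, against 27.1% of all tested genes in Mstn-/- and 30.3% in wildtype. Cd4, the co-receptor for class II that some myeloid cells also carry, rose by 0.79 ± 0.11 in Mstn-/- (limma adjusted p = 7.5e-07) and 0.77 ± 0.11 in wildtype (limma adjusted p = 7.0e-07), and Cd3e, a chain of the T cell receptor complex, by 0.24 in Mstn-/- and 0.20 in wildtype.

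Of 6 NK cell markers Nkg7 alone passed the filter. It was higher with overload by 1.03 in Mstn-/- and 0.34 in wildtype, a larger response in Mstn-/- by 0.69 ± 0.18 (limma adjusted p = 0.0084), as for probe set 10450075. Endothelial markers, from cells that carry class I molecules, rose for 6 of 7 in each genotype with overload, with a median of 0.59 in Mstn-/- and 0.35 in wildtype. In untreated muscle 3 of the 7 (Kdr, Esam and Tie1) were lower in Mstn-/- than in wildtype (10.2% of all tested genes). Tek alone was higher (11.1% of all). The response was larger in Mstn-/- for 3 of the 7 (8.92% of all tested genes) and smaller for none (8.44%). The median difference was 0.21, and that of Esam, an adhesion molecule of endothelial junctions, was 0.31 ± 0.09 (limma adjusted p = 0.016). Their sums were 6813 to 8167 in overloaded and 4466 to 5256 in untreated Mstn-/- muscle, and 6241 to 8194 in overloaded and 4770 to 6090 in untreated wildtype muscle. With overload in Mstn-/-, 4 of 8 muscle fibre markers fell (33.5% of all tested genes), namely Ckm, Myh4, Actn3 and Tnnt3. Myh1 alone rose (27.1%). In wildtype 5 of 8 fell (35.6%), the same 4 and Pvalb. Acta1 and Mylpf did not pass for overload in either genotype. Under overload 6 of the 8 were higher in Mstn-/- than in wildtype (17.5% of all tested genes) and none was lower (19.0%). The response was larger in Mstn-/- for 4 of the 8 (8.92%) and smaller for none (8.44%). What these shifts contribute to the class I differences was not tested.

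**Figure D5:**
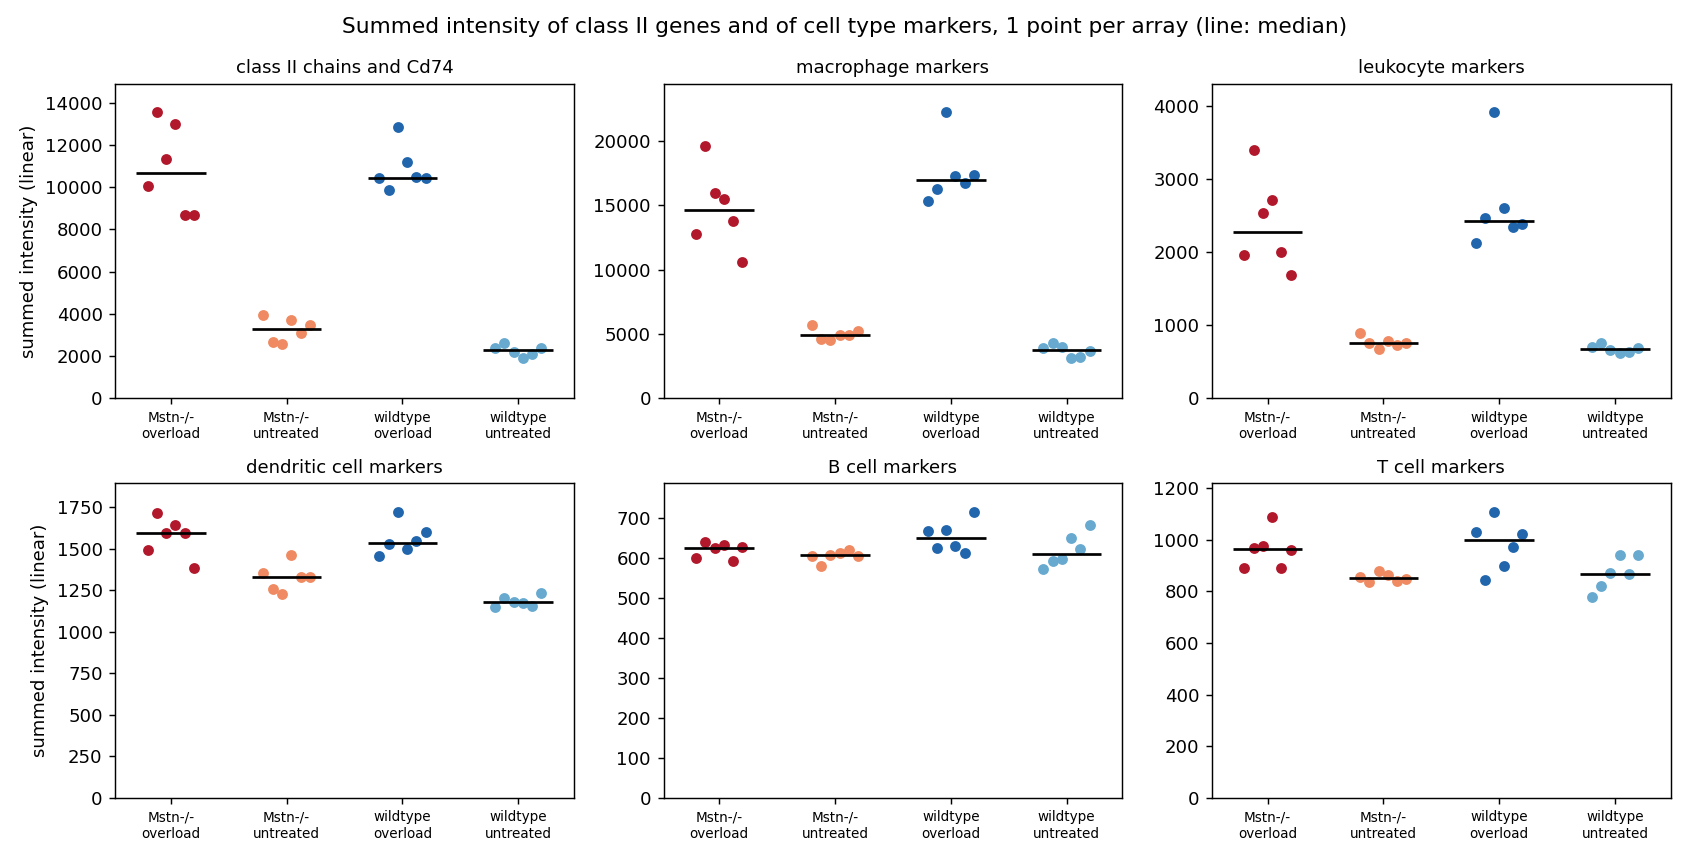
Summed linear intensity of marker lists and of the class II chains with Cd74 on each of the 24 arrays (points), with each group's median (bar). Macrophage sums are 10609 to 22261 in overloaded and 3130 to 5724 in untreated muscle. B cell sums lie between 572 and 715 in all 4 groups, with 4 of the 7 measured genes above the filter, so low signal makes up part of them.

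Genes whose profile lay nearest to that of H2-Aa were ranked by the root mean square difference of log2 values, each centred on its mean, over the 24 arrays. The nearest were H2-Ab1 (0.128) and Cd74 (0.154), followed by Laptm5, a lysosomal membrane protein of leukocytes (0.173), Lyz2 (0.184) and Cd53, a leukocyte tetraspanin (0.187), where the median over all tested genes was 1.15. Nearest to B2m were Irf9, a subunit of the factor that binds interferon-stimulated response elements (0.113), Rnf213 (0.115), Parp12 (0.127), Abcg1 (0.127) and Parp9 (0.128), with a median of 0.477. The genes nearest to H2-Aa and to B2m differed in untreated muscle. All 5 nearest to H2-Aa were higher in untreated Mstn-/- than in untreated wildtype muscle, by 0.32 to 0.85, whereas none of the 5 nearest to B2m was, and Parp12 was lower by -0.29 (limma adjusted p = 0.0062). Since these genes were picked for their likeness, the agreement in direction is a description.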

How the data were processed

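Per the labels, RNA of 24 plantaris muscles was hybridised to whole-transcript arrays (4 groups of 6). Per the submitters' processing notes, the authors used RMA; the sources used here give neither its version nor a genome build. The deposited table holds 1 intensity per probe set and array on a linear scale (4.72 to 25589), and log2 of it was taken here without a pseudocount. The plan did not settle the scale beforehand. No pair of arrays shared more than 0.0201% of its values. Of 34760 probe sets, 21640 had 1 symbol, 1321 several and 11799 none, per GEO's platform annotation, which can be old. Of the 19937 symbols 19918 matched RefSeq. A gene was its single-symbol probe set with the highest mean, tested if a group mean exceeded the 30th percentile (log2 6.63, intensity 98.9).

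limma 3.58.1 (R 4.3.3) fitted 1 mean per group over all 24 arrays (20 residual degrees of freedom, eBayes), with Benjamini-Hochberg adjustment over 14499 genes and a threshold of 0.05. Exact permutation tests used SciPy 1.17.1. Fold changes are ratios of geometric means, and errors without a name are SE. The median SE was 0.067, and the number of arrays limits precision. On simulated data for overload in wildtype (14499 genes, 5 runs) the fit recovered 26.4% of changes of 0.2 and 63.2% of 0.3. It recovered 94.4% of changes of 0.5 and 98.8% of 1, with 4.72% of calls false. The changes recovered over all runs numbered 66, 158, 236 and 247 in that order, whereas 9560 genes passed in the measured data. Recovery with so many changed genes was not tested.

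The genes, motifs and lists were chosen with earlier results of these data known. From each list at most 4 genes per comparison were to be named, those with the smallest adjusted p, at most 2 higher and 2 lower; others named beside them were chosen after their values were seen. March1, March8 and H2-Ea-ps were matched as Marchf1, Marchf8 and H2-Ea. Alternatives were other filters, quantile normalization, median shifts of arrays, a pseudocount of 16, the mean of a gene's probe sets, another variance model, array weights, only the arrays compared, a replicate block and leaving out each array.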

Additional observations from a re-analysis of the deposited data

Results flagged for a closer look

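The overload response differed between Mstn-/- and wildtype by the interaction term of the limma fit for H2-Aa (-0.60), H2-Ab1 (-0.54), H2-Eb1 (-0.50) and Ciita (-0.34), all smaller in Mstn-/-, and for the probe set 10450075 shared by H2-K1 and H2-D1 (0.56), larger in Mstn-/-. In untreated muscle the first 3 genes were higher, and probe set 10450075 lower, in Mstn-/- than in wildtype. Under overload the genotypes did not differ past the threshold in these 4, so the difference in response and the untreated difference rest on the same untreated arrays.

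Overloaded wildtype replicate 3 stood apart from its group on both shared probe sets, at a log2 intensity of 11.35 for 10444780 and 11.00 for 10450075. These were 2 of 40 groups tested with Dixon's ratio, which flags about 1 in 20 groups by chance. The same array had the highest macrophage, leukocyte and class II sums of its group. Without it the difference in response was 0.66 for 10450075 (limma adjusted p = 0.0030) and 0.31 for 10444780 (limma adjusted p = 0.15).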

How the results depend on the processing

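With overload 7 of 8 genes passed in Mstn-/- and 8 of 8 in wildtype under every alternative run, except that the filter at the 50th percentile removed Ciita and left 7 in wildtype. Leaving out 1 array left 928 of 960 values on the same side of the threshold and in the same direction, and other settings 422 of 427. For Mstn-/- against wildtype under overload, H2-Aa (main value -0.01) became 0.0064 with arrays shifted to the same median and 0.023 with array weights. With 1 array left out it ran from -0.085 to 0.054, H2-DMa from -0.055 to 0.11, Cd74 from -0.13 to 0.015 and Tap1 from -0.084 to 0.013, none past the threshold. With the filter at the 50th percentile 0 of the genes passed there, since Ciita was no longer tested. Members past the threshold for the difference in response numbered 2 to 5 with 1 array left out; 2 remained without overloaded Mstn-/- replicate 5, overloaded Mstn-/- replicate 6 or untreated wildtype replicate 4. H2-Aa then reached an adjusted p of up to 0.053 and H2-Ab1 of up to 0.066. H2-Eb1 (up to 0.038) and Ciita (up to 0.010) passed in all. The Cd74 difference in response passed with quantile normalization (adjusted p = 0.038) and the 50th percentile filter (0.043), and that of B2m with array weights (0.36, adjusted p = 0.018); their cause was not tested. Leaving out untreated Mstn-/- replicate 1 also let B2m pass. No gene of the set had another single-symbol probe set, so that alternative gave no value.

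Replicate numbers did not pair the samples: deviations of same-numbered arrays correlated at -0.41 to 0.36 (median 0.02), with 9 of 36 pairs over 0.1. With the replicate block, 7 genes passed for overload in Mstn-/-, 8 in wildtype, 5 between untreated genotypes, 1 under overload and 4 for the response, as without it, and 8688, 9512, 3004, 5219 and 2440 of all tested genes.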
